A study of Homo sapiens with 6 samples.

Results

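Antisense RNA genes are annotated as noncoding and are typically transcribed from the strand opposite a coding gene. The set described here held 204 of the 5583 genes that the count table classes as antisense, among 58735 genes in all. A member had at least 2 CPM (counts scaled to the library total) in each of the 6 libraries. That rule passed 209 antisense genes, of which ZFAS1, SNHG7, SNHG12, SNHG10 and KCNQ1OT1 were left out by name, as hosts of small nucleolar RNAs or, for KCNQ1OT1, an imprinted RNA. The members were thus chosen by their level in both groups and not by a difference between groups, so the levels are a description and the differences were tested. Just inside the minimum of 2 CPM lay PTOV1-AS2, whose lowest library held 2.01 CPM, and AC003102.1 and MAP3K14-AS1, with 2.02 CPM each. Just outside it lay AC006547.1 and AC010761.1, with 1.99 CPM each, and AL355312.3, with 1.97 CPM.

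The libraries came from HuCCT1, an established human cholangiocarcinoma line labelled as bile duct. One group of 3 libraries (siC1QBP) was from cells treated with a small interfering RNA against C1QBP, a mitochondrial matrix protein that also occurs at other sites in the cell. The other group of 3 (siNC) received the control siRNA and is otherwise labelled wild type. Both groups are the same line, so the comparison rests on 1 line, and the sources used here do not give the siRNA sequences, their number or the time after transfection.

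An antisense RNA can start near the promoter of its coding partner and run away from it (head to head), or overlap the partner's 3' end (tail to tail), or lie wholly within the partner or span it. Some such RNAs are stable and exported, while many are short-lived products that the nuclear exosome and its adaptors remove. Described roles range from acting on the chromatin of the partner locus to pairing with the partner's mRNA, and for most of them no role is known.

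All 6 libraries carried the biliary epithelial markers fixed for the check (8 of 8 at 1 CPM or more, with the highest at 3459 CPM for KRT7). Their summed level was 7764 to 8137 CPM in siC1QBP and 8575 to 9067 CPM in siNC. Of 12 markers of other cell types, 4 reached 1 CPM, TTR and CD3E were at 0, and the list summed to 13.8 to 15.9 CPM against 10.9 to 13.8 CPM. C1QBP itself read 59.1, 57.6 and 60.01 CPM in the siC1QBP libraries and 175, 181 and 185 CPM in siNC, which is in the direction of the labels. Total counts ran from 17122252 to 20416243 per library. Replicate 1 of siC1QBP stood apart from its own group: its chi-square per degree of freedom was 6.66 and 6.77 against the other siC1QBP libraries, which differed from each other by 2.09. Within siNC, replicate 1 differed from the others by 3.67 and 3.40, and these differed by 2.13. The share of counts from mitochondrially encoded genes was 4.80, 4.28 and 4.20% in siC1QBP and 3.88, 3.69 and 3.66% in siNC, and its part in the results below was not tested.

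Several results turn on loci where the exons of both strands coincide, so stretches of these are shown first. Each pair of lines gives 30 bases from the middle of the longest stretch shared by exons of both genes, read 5' to 3' from the antisense transcript and then from its coding partner. The transcripts are those of GENCODE release 29 on hg38, and the lines are in lower case throughout because every base lies in both exons. At chrX:149938692-149938721 LINC00894 runs on the plus strand and CXorf40B on the minus strand, with 159 bases shared in 1 run. At chr12:65881919-65881948 AC090673.1 is on the minus strand and HMGA2 on the plus strand, with a shared run of 384 bases. At chr15:50355181-50355210 GABPB1-AS1 is on the plus strand and GABPB1 on the minus strand, with a shared run of 424 bases. At chr12:7108379-7108408 C1RL-AS1 is on the plus strand and C1RL on the minus strand, with a longest shared run of 174 bases.
LINC00894: ggccggggagctcgagacaggcagcctaga
CXorf40B: tctaggctgcctgtctcgagctccccggcc
AC090673.1: cccgcaattggaatctctccatgccttctg
HMGA2: cagaaggcatggagagattccaattgcggg
GABPB1-AS1: gagggacacatggtgtgcgagtgagtcaag
GABPB1: cttgactcactcgcacaccatgtgtccctc
C1RL-AS1: ggtacccgggggatgtcagctgctggggta
C1RL: taccccagcagctgacatcccccgggtacc

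The promoter sequence of a head-to-head pair is shown next, because its antisense gene was among the called rises and its partner was not. FBXL19-AS1 and FBXL19 start 214 bases apart in RefSeq and point in opposite directions with overlapping exons. The 250 bases before each start, which lie on either side of the stretch between the starts, are given from RefSeq on GRCh38.p14, at chr16:30923270-30923519 on the minus strand for FBXL19-AS1 and at chr16:30922805-30923054 on the plus strand for FBXL19. Capitals mark matches to the 8 motifs searched on both strands of the 300-base windows (250 bases before to 50 after the start). These were TATAAA (known from TBP), CCAAT (NF-Y), GGGCGG (SP1), CCGGAAG (ETS factors), CACGTG (MYC and MAX), TGACGTCA (CREB), TGACTCA (AP-1) and the palindromic motif of NRF1.
FBXL19-AS1: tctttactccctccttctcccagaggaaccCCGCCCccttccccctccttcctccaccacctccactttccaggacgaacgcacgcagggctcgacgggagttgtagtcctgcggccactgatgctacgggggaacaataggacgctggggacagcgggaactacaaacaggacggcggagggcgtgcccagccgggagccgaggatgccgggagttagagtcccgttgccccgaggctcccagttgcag
FBXL19: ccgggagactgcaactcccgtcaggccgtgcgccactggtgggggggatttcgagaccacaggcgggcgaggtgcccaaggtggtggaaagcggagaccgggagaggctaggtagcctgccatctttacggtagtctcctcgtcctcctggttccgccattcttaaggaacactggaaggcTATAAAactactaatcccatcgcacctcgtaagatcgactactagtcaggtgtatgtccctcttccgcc

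The FBXL19-AS1 window held GGGCGG, read on the other strand, and the FBXL19 window held TATAAA. Of all 35116 RefSeq promoter windows, 45% held GGGCGG and 11.5% held TATAAA. RefSeq gave a window for 120 of the 204 members, matched by symbol or gene identifier. GGGCGG was in 58.3% of these, TATAAA in 9.17%, CCAAT in 30.8% (34.6% of all windows), CCGGAAG in 10.8% (10.3%), CACGTG in 6.67% (7.26%), TGACGTCA in 1.67% (1.85%), TGACTCA in 8.33% (4.95%) and the NRF1 motif in 2.5% (1.24%). The median number of CG dinucleotides per window was 24 in the members and 14 in all windows. All windows were counted whatever the level of their gene, whereas the members were chosen by level, and no other expressed set was counted. The differences were thus not shown to be particular to antisense genes. These are descriptions of letters in a window and say nothing of binding.

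The members were mostly faint RNAs with a few abundant ones. Their group mean was 5.28 CPM at the median in siC1QBP (2.29 to 106) and 5.01 CPM in siNC (2.28 to 109). These CPM are on library sizes scaled by the trimmed mean of M values (TMM). This is also the scale of the marker and C1QBP values above and of the gene values from here on. Minimum levels, groups by lowest library and the 3-count limit stayed on library totals. Per kb of exon the median was 2.17 CPM and the range 0.07 to 55.2 CPM. Together the 204 genes took 0.169, 0.187 and 0.180% of all counts in siC1QBP replicates 1 to 3 and 0.166, 0.166 and 0.165% in siNC. The siC1QBP libraries were thus above all siNC libraries, with replicate 1 the closest. More antisense genes of any level had at least 1 count in siC1QBP (2551, 2630 and 2556) than in siNC (2298, 2339 and 2248). The same count was not made for other gene classes, so the difference was not shown to be particular to antisense genes.

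Of the 204 members, all of which passed the low-count filter, 16 rose and 3 fell after C1QBP knockdown at an edgeR adjusted p under 0.05, and 185 did not pass. This is 9.31% of members, against 14.3% of all 15530 tested genes, 5.05% of the 812 tested antisense genes and 16.1% of protein-coding genes (6.95% higher and 9.15% lower). By direction, 7.84% of members rose and 1.47% fell, where the same test called 6.47% of all tested genes higher and 7.84% lower, and 4.31% and 0.739% of antisense genes. The split of all genes depended on scaling: by library size alone, 1253 were higher and 908 lower, with 19 members higher and 3 lower. Leaving out replicate 2 of siNC left 11 members called, and leaving out the others left 13 to 23. No called member changed by 2-fold or more. In bulk samples such as these, fewer cells of a type and less RNA per cell cannot be told apart.

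The median log2 fold change (siC1QBP over siNC) over the members was 0.09, with 135 of 204 above 0. The median was 0.003 over all tested genes, -0.007 over protein-coding genes, 0.10 over long intergenic noncoding RNAs (lincRNAs) and 0.14 over the 608 other tested antisense genes. Without siC1QBP replicate 2 the members' median was 0.04, and without siNC replicate 1 it was 0.05. In the siC1QBP libraries, 101, 146 and 121 members lay above their own siNC mean, against 91, 101 and 100 in the siNC libraries. Replicate 2 thus carried more of the shift than replicate 1, whose count was no higher than the highest siNC count. All 3 siC1QBP values lay above all 3 siNC values for 36 members and below them for 9. Over all tested genes, 16.0% had groups that did not overlap in the higher direction and 16.6% in the lower direction. Most members moved little: the fold change was under 0.2 on the log2 scale in either direction for 121.

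**Figure D1:**
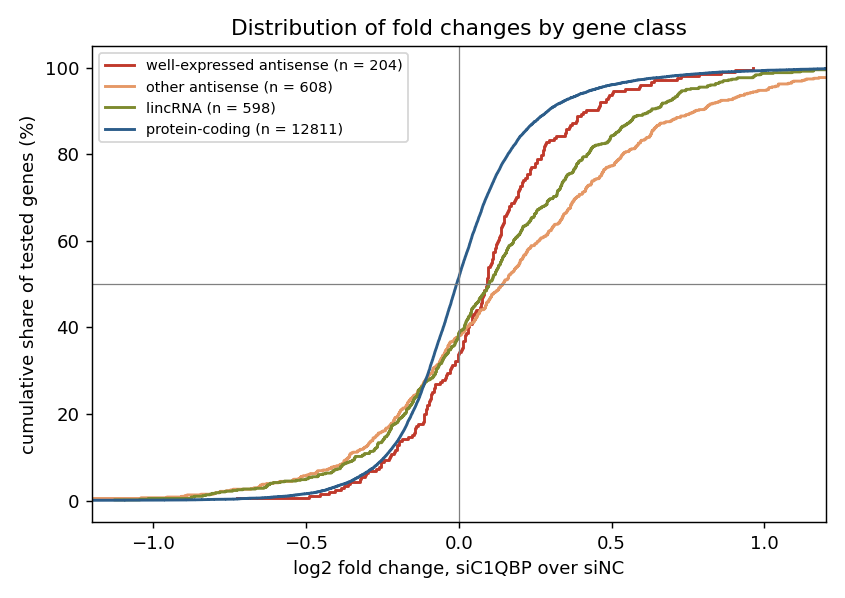
The horizontal axis is the log2 fold change of siC1QBP over siNC and the vertical axis the cumulative share of tested genes, for the 204 well-expressed antisense genes, 608 other antisense genes, 598 lincRNAs and 12811 protein-coding genes. The curve of the well-expressed antisense genes crosses 50% at 0.09 and the protein-coding curve at -0.007, and the other antisense genes spread most widely.

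Among the rises, C1RL-AS1 had the smallest p. It lies at chr12:7108052-7122501 on the plus strand (ENSG00000205885), head to head with C1RL, which encodes a serine protease related to complement C1r. It read 29.6, 29.8 and 25.8 CPM in siC1QBP and 16.7, 15.9 and 16.7 CPM in siNC. All siC1QBP libraries were well above all siNC libraries, a log2 fold change of 0.79 (SE 0.08, edgeR adjusted p = 1.75e-05). C1RL rose too, from 27.5, 29.5 and 28.97 CPM to 34.6, 40.1 and 34.5 CPM. Its log2 fold change of 0.34 (SE 0.08, edgeR adjusted p = 0.0056) was the smaller of the pair.

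LINC00894 (ENSG00000235703, chrX:149938628-150224580, plus strand) starts head to head with CXorf40B, whose start lies 183 bases away in the count table's coordinates. It read 10.6, 12.5 and 11.03 CPM in siC1QBP against 5.93, 5.46 and 6.81 CPM in siNC. The groups were far apart, with a log2 fold change of 0.90 (SE 0.13, edgeR adjusted p = 0.000236). CXorf40B read 40.2, 45.2 and 41.8 CPM against 42.6, 44.3 and 41.6 CPM, and its groups overlapped. The locus has a near-identical neighbour, LINC00893 with CXorf40A, so reads may have been split between the copies. LINC00893, also a member and named after its values were seen, read 3.67, 5.31 and 4.52 CPM against 4.12, 4.52 and 4.14 CPM, with overlapping groups (log2 fold change 0.08, edgeR adjusted p = 0.819).

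AC090673.1 (ENSG00000197301, chr12:65851340-65882167, minus strand) lies inside HMGA2, the gene of an architectural chromatin protein. It was a faint member, at 7.003, 6.40 and 5.62 CPM in siC1QBP and 3.84, 2.98 and 2.94 CPM in siNC. Its rise of 0.96 on the log2 scale (edgeR adjusted p = 0.00148, SE 0.17) was the highest fitted value among the 204 members. HMGA2, at 235 to 239 CPM in siC1QBP and 251 to 261 CPM in siNC, was lower in all siC1QBP libraries but did not pass (log2 fold change -0.11, edgeR adjusted p = 0.088).

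GABPB1-AS1 (ENSG00000244879, chr15:50354959-50372202, plus strand) is head to head with GABPB1, which encodes a subunit of the ETS-family transcription factor GABP. It read 6.17, 6.06 and 6.46 CPM in siC1QBP and 3.79, 3.57 and 4.03 CPM in siNC, with a narrow spread in both groups. The fit gave a log2 fold change of 0.72 (SE 0.15, edgeR adjusted p = 0.00464). GABPB1 read 22.2, 20.5 and 21.0 CPM against 24.3, 24.3 and 25.9 CPM. All siC1QBP values of GABPB1 were lower, and the fit did not call it (log2 fold change -0.22, edgeR adjusted p = 0.0615).

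UCKL1-AS1 (ENSG00000280213, chr20:63953384-63956985, plus strand) overlaps the 5' end of UCKL1, the gene of a uridine-cytidine kinase-like protein, and a second coding gene, ZNF512B. It read 8.17, 10.3 and 8.29 CPM in siC1QBP against 5.65, 5.46 and 6.05 CPM in siNC (log2 fold change 0.64, SE 0.14, edgeR adjusted p = 0.00505). UCKL1 read 39.4, 46.3 and 44.2 CPM against 47.6, 45.5 and 43.95 CPM, and its groups overlapped. ZNF512B, the more abundant of the coding genes, had a log2 fold change of 0.18 and did not pass (edgeR adjusted p = 0.0583).

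FBXL19-AS1 (ENSG00000260852, chr16:30919319-30923269, minus strand), whose start region is printed above, is head to head with FBXL19, the gene of an F-box protein with a CpG-binding zinc finger. Its siC1QBP values were 8.06, 10.6 and 11.2 CPM and its siNC values 6.70, 6.10 and 6.54 CPM. Replicate 1 was the lowest siC1QBP library and still above all siNC libraries (log2 fold change 0.63, SE 0.14, edgeR adjusted p = 0.00623). FBXL19 read 39.9, 43.0 and 37.6 CPM against 41.7, 46.2 and 43.0 CPM, and its groups overlapped.

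LUCAT1 (ENSG00000248323, chr5:91054834-91314547, minus strand), a long noncoding RNA known as a target of the oxidative stress factor NRF2, overlaps the 3' part of ADGRV1 without sharing exon bases with it. It read 21.6, 21.9 and 22.3 CPM in siC1QBP and 15.4, 16.1 and 16.2 CPM in siNC and its replicates lay close together in both groups. The fit gave a log2 fold change of 0.46 (SE 0.08, edgeR adjusted p = 0.00134). ADGRV1, an adhesion receptor gene, was near the detection limit, at 0.109 to 0.843 CPM over the 6 libraries, with overlapping groups.

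ASMTL-AS1 (ENSG00000236017, chrX:1401769-1414028, plus strand) lies in the pseudoautosomal region, whose X and Y copies are identical, so its counts may depend on how these copies were handled. It read 7.89, 10.3 and 10.7 CPM in siC1QBP against 4.17, 6.45 and 5.23 CPM in siNC (log2 fold change 0.86, SE 0.17, edgeR adjusted p = 0.0023). Both groups were spread, with siC1QBP replicate 1 the lowest of its group. ASMTL, tail to tail with it, read 15.96 to 17.01 CPM against 12.8 to 14.9 CPM and did not pass (log2 fold change 0.21, edgeR adjusted p = 0.147).

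VIPR1-AS1 (ENSG00000232354, chr3:42506465-42533258, minus strand) lies inside VIPR1, the gene of a receptor for vasoactive intestinal peptide, which acts on secretion in bile ducts. It read 13.3, 13.8 and 13.9 CPM in siC1QBP against 8.62, 10.5 and 8.99 CPM in siNC (log2 fold change 0.55, SE 0.11, edgeR adjusted p = 0.00311). VIPR1 was also higher in every siC1QBP library, at 162, 164 and 168 CPM against 149, 149 and 142 CPM (log2 fold change 0.17, SE 0.05, edgeR adjusted p = 0.0193).

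A further 6 rises lay outside the rule that named the strongest 10, except AL365181.3, which it named for its level, and are given here to fill out the count. AC003681.1 inside MTMR3 had a log2 fold change of 0.73, AL731571.1 inside CTBP2 0.59, AC018653.3 head to head with CLSTN3 0.59, AC020916.1 tail to tail with ZSWIM4 0.46, SH3BP5-AS1 tail to tail with SH3BP5 0.42 and AL365181.3 inside BCAN 0.23. Their edgeR adjusted p ran from 0.0197 to 0.0402. Each lost its call when single libraries were left out. This was so without siC1QBP replicate 2 for all 6 (edgeR adjusted p 0.0522 to 0.119), and without siNC replicate 2 for all but AL365181.3 (0.0505 to 0.107). It was also so without siC1QBP replicate 3 for AC020916.1, AC018653.3 and AL365181.3 (edgeR adjusted p 0.0824 to 0.114), and without siNC replicate 3 for AC020916.1, SH3BP5-AS1, AC003681.1 and AL365181.3 (0.0745 to 0.208). SH3BP5-AS1, AC018653.3 and AL365181.3 lost it without siNC replicate 1 (edgeR adjusted p 0.0638 to 0.13), and SH3BP5-AS1 without siC1QBP replicate 1 (0.082). DESeq2 did not call AL365181.3, SH3BP5-AS1 or AC018653.3 (adjusted p 0.0564 to 0.0596), and with the trend of counts with gene length removed edgeR did not call AC020916.1 or AC003681.1 (adjusted p = 0.0726 and 0.0686). CLSTN3, a calsyntenin gene, rose with AC018653.3: it read 115, 115 and 115 CPM against 104, 96.8 and 101 CPM (log2 fold change 0.20, edgeR adjusted p = 0.0103).

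**Figure D2:**
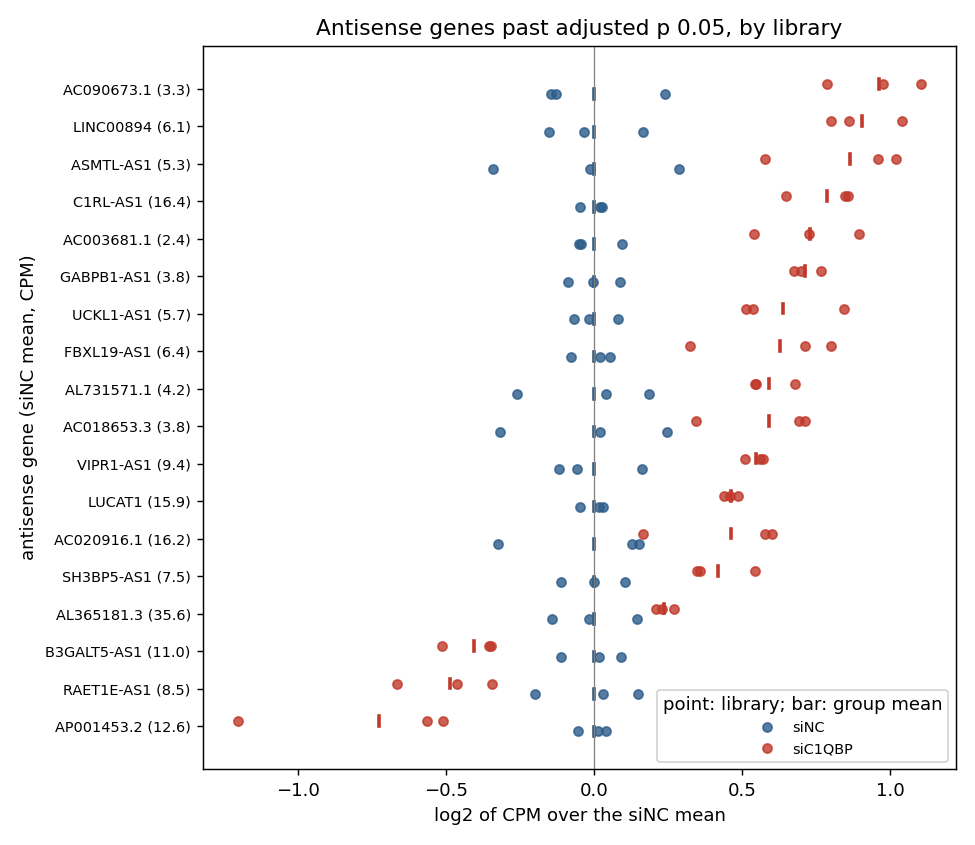
The horizontal axis is the log2 of each library's CPM over the siNC mean of the gene, and each row is 1 of 18 of the 19 called antisense genes with its siNC mean in CPM. Points are libraries and bars are group means; in every row the 3 siC1QBP points lie on 1 side of the 3 siNC points, and siC1QBP replicate 1 of AP001453.2 is the farthest point to the left.

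The 3 falls were AP001453.2, B3GALT5-AS1 and RAET1E-AS1. AP001453.2 (ENSG00000256940, chr11:64245964-64248217, plus strand) is head to head with PPP1R14B, which encodes an inhibitor of protein phosphatase 1. It read 5.45, 8.48 and 8.82 CPM in siC1QBP and 12.7, 12.9 and 12.1 CPM in siNC (log2 fold change -0.73, SE 0.15, edgeR adjusted p = 0.00315). Replicate 1 of siC1QBP was far below the other siC1QBP libraries, and all 3 were below siNC. PPP1R14B fell as well, to 352, 376 and 342 CPM from 414, 503 and 481 CPM (log2 fold change -0.39, SE 0.06, edgeR adjusted p = 0.00051).

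B3GALT5-AS1 (ENSG00000184809, chr21:39597147-39612821, minus strand) lies inside B3GALT5, the gene of a galactosyltransferase of epithelial glycans, without shared exon bases. It read 7.67, 8.60 and 8.56 CPM against 11.1, 11.7 and 10.1 CPM (log2 fold change -0.41, SE 0.12, edgeR adjusted p = 0.0257). B3GALT5 fell from 87.7, 87.0 and 83.5 CPM to 75.0, 77.7 and 75.9 CPM (log2 fold change -0.18, SE 0.05, edgeR adjusted p = 0.0265). The antisense call was lost without siC1QBP replicates 1 or 3 or siNC replicates 1 or 2 (edgeR adjusted p 0.052 to 0.117). RAET1E-AS1 (ENSG00000268592, chr6:149863494-149919507, plus strand) overlaps several coding genes of the other strand. Its longest overlap is with AL355312.5, which was at 0 to 0.115 CPM. LRP11, the most abundant of these coding genes, read 7.61, 7.62 and 6.72 CPM against 7.36, 8.83 and 7.08 CPM. The groups of LRP11 overlapped (log2 fold change -0.09, edgeR adjusted p = 0.718). RAET1E-AS1 read 6.17, 6.69 and 5.36 CPM against 7.41, 8.68 and 9.42 CPM (log2 fold change -0.49, SE 0.14, edgeR adjusted p = 0.0281). Its call was lost without siC1QBP replicate 3 or siNC replicates 2 or 3 (edgeR adjusted p 0.0989 to 0.134). With the length trend removed neither B3GALT5-AS1 nor RAET1E-AS1 passed (edgeR adjusted p = 0.0502 and 0.0539), and DESeq2 did not call B3GALT5-AS1 (adjusted p = 0.052).

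Of the 6 most abundant members, AL365181.3 was called and the other 5 were not. FGD5-AS1 (ENSG00000225733, chr3:14920347-14948424, minus strand) was the most abundant, at 109, 107 and 102 CPM in siC1QBP and 112, 106 and 110 CPM in siNC. Its groups overlapped (log2 fold change -0.04, edgeR adjusted p = 0.626). Its overlap partner FGD5 was nearly silent, at 0 to 0.115 CPM, and NR2C2, a nuclear receptor gene that it also overlaps, read 94.2 to 99.3 CPM against 92.2 to 100.1 CPM.

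KRT7-AS (ENSG00000257671, chr12:52245048-52247448, minus strand) lies inside KRT7, the keratin that marks bile duct epithelium. It read 45.5, 47.5 and 45.5 CPM against 47.3, 48.9 and 46.0 CPM, with overlapping groups (log2 fold change -0.04, edgeR adjusted p = 0.723). KRT7 fell, from 3683, 3826 and 3790 CPM to 3105, 3226 and 3122 CPM (log2 fold change -0.26, SE 0.04, edgeR adjusted p = 0.000214). Per kb of exon KRT7-AS stood at 3.27% of the level of KRT7. The antisense minus partner difference of 0.22 did not pass (limma adjusted p = 0.128).

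PSMA3-AS1 (ENSG00000257621, chr14:58265365-58298134, minus strand) is tail to tail with the proteasome subunit gene PSMA3. It read 46.6, 53.7 and 53.8 CPM against 50.1, 51.6 and 50.8 CPM, with siC1QBP replicate 1 the lowest of all and overlapping groups. PSMA3 fell from 207, 213 and 206 CPM to 172, 172 and 174 CPM (log2 fold change -0.27, SE 0.04, edgeR adjusted p = 0.00045), and the difference of 0.28 between the pair did not pass (limma adjusted p = 0.0766).

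AC015712.2 (ENSG00000259583, chr15:100892859-100919283, minus strand) overlaps ALDH1A3, which makes retinoic acid. It read 60.9, 59.2 and 62.2 CPM against 61.9, 54.7 and 55.7 CPM, overlapping between groups. ALDH1A3 fell, from 1098 to 1118 CPM in siNC to 913 to 1006 CPM in siC1QBP (log2 fold change -0.19, edgeR adjusted p = 0.00508). HOXB-AS3 (ENSG00000233101, chr17:48549630-48606414, plus strand) spans part of the HOXB cluster of homeobox genes. It read 35.7, 42.6 and 41.7 CPM against 42.8, 45.9 and 40.5 CPM, while HOXB3 fell from 155, 164 and 149 CPM to 120, 136 and 135 CPM (log2 fold change -0.26, edgeR adjusted p = 0.0038). The pair difference passed for neither (limma adjusted p = 0.0629 for AC015712.2 and 0.321 for HOXB-AS3), so the falls of these coding genes were not shown to differ from the values of their antisense genes. AL365181.3 (ENSG00000272405, chr1:156641666-156644887, minus strand) read 41.2, 43.0 and 41.7 CPM against 35.2, 39.4 and 32.3 CPM. BCAN, in which it lies, read 7.73, 9.40 and 8.24 CPM against 7.03, 7.64 and 6.21 CPM and did not pass (log2 fold change 0.28, edgeR adjusted p = 0.182).

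The 3 members with the largest fold changes that missed the threshold were AP001107.9, GDNF-AS1 and PTOV1-AS2, all under 5 CPM in the group means. AP001107.9 read 3.50, 5.19 and 4.04 CPM against 2.85, 2.58 and 3.54 CPM, overlapping between groups (log2 fold change 0.50, edgeR adjusted p = 0.112). Without siC1QBP replicate 1 it passed, at 0.62 (edgeR adjusted p = 0.048). GDNF-AS1 read 3.39, 4.27 and 3.25 CPM against 2.47, 3.08 and 2.12 CPM without overlap (log2 fold change 0.50, edgeR adjusted p = 0.13). PTOV1-AS2 read 3.67, 4.44 and 2.89 CPM against 2.75, 2.03 and 3.05 CPM with overlap (log2 fold change 0.49, edgeR adjusted p = 0.16).

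An overlapping protein-coding gene on the other strand was found for 183 of the 204 members. Where several overlapped, as for 42 members, the longest overlap was taken. This gave 179 distinct partners, 4 of them shared by 8 members, and 161 passed the low-count filter. Exons of both strands shared bases in 139 pairs, and in 44 they did not. The shared bases made up 6.03% of the antisense exons at the median and at most 85.8% (AC010642.2 with ERVK3-1). Although the library kit marks strand, the sources used here do not give the strand setting of the counting, so reads in the shared exon bases may have been counted for either gene.

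Of the 161 tested partners, 17 rose and 18 fell by the same edgeR test, or 21.7%, against 16.1% of all tested protein-coding genes, and their median log2 fold change was -0.01. Partners have higher counts than members, with a median SE of 0.07 against 0.17, so these shares are not compared by a test. In 5 pairs both genes were called, and in all 5 they moved the same way. The pairs that rose were C1RL-AS1 with C1RL, VIPR1-AS1 with VIPR1 and AC018653.3 with CLSTN3. Those that fell were AP001453.2 with PPP1R14B and B3GALT5-AS1 with B3GALT5. In 32 pairs only the partner was called, 14 higher and 18 lower, and 13 rises of members had a partner that was tested and not called.

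One of the 32 was CYP1B1-AS1 with CYP1B1, named after its values were seen because CYP1B1 had the smallest p of these partners. CYP1B1, a hydroxylase gene under the aryl hydrocarbon receptor, read 82.4, 78.4 and 82.5 CPM against 53.0, 52.5 and 47.7 CPM (log2 fold change 0.67, edgeR adjusted p = 1.88e-06). CYP1B1-AS1 read 8.003, 7.27 and 7.40 CPM against 8.29, 6.202 and 6.15 CPM, with overlapping groups, and the pair difference of -0.52 did not pass (limma adjusted p = 0.117).

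Across the 164 pairs with a tested partner, the fold changes of both genes showed little correlation, with Pearson's r 0.09 and Spearman's rho 0.12. This is a description across genes that share libraries, normalization and, in part, exon bases. Over all 204 members the median SE was 0.17, beside a median absolute log2 fold change of 0.15. Such error pulls r towards 0, so the low r does not show that the changes were unrelated. By arrangement r was 0.12 over 62 head-to-head pairs, 0.15 over 43 tail-to-tail pairs, -0.02 over 48 antisense genes inside their partner and 0.08 over 11 around it. Levels per kb of exon were weakly related too: r between log2 levels was 0.27 over the 164 pairs, 0.21 over the 31 with 20% or more of the antisense exons shared and 0.32 over the 34 with none shared. The antisense gene was the more abundant of the pair per kb in 57 of the 183 pairs, and its median level was 29.7% of the partner's.

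**Figure D3:**
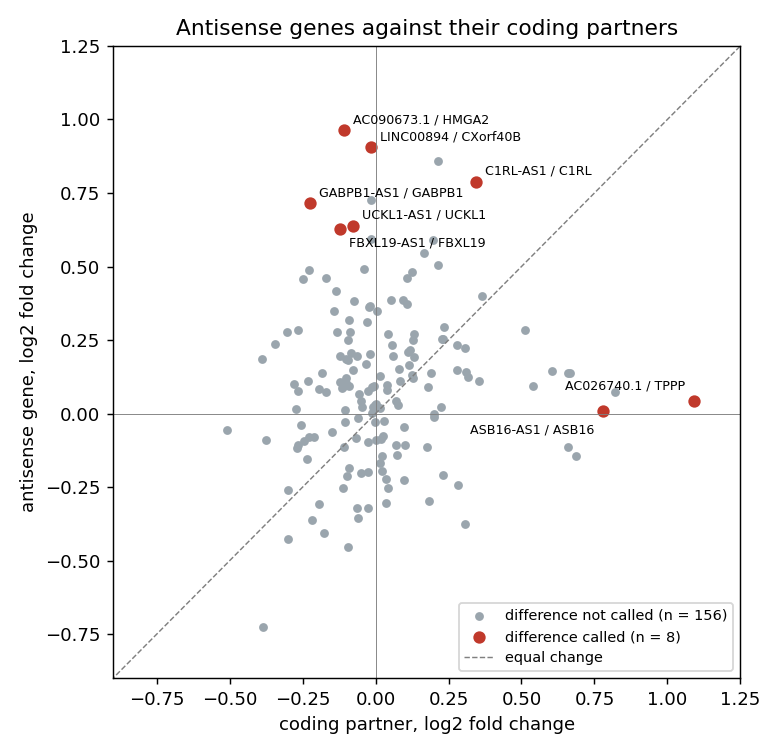
Each point is 1 of 164 antisense genes, with the log2 fold change of its coding partner on the horizontal axis and its own on the vertical axis. The dashed line marks equal change; the 8 labelled points have a called difference, with 6 above the line and 2 (ASB16-AS1 and AC026740.1) below it near a vertical value of 0.

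Whether the antisense RNA and its partner changed by different amounts was tested on the difference of their log2 CPM in each library. Of 654 antisense pairs tested over the table, 12 were called (1.83%), 1.38% with the antisense gene up relative to its partner and 0.459% with it down. Of the 164 member pairs, 8 were called (4.88%), 6 with the antisense gene moving up relative to its partner and 2 with it moving down. Among the 6 the differences were 1.05 for AC090673.1 and HMGA2 (SE 0.19, limma adjusted p = 0.0156), 0.92 for GABPB1-AS1 and GABPB1 (0.18, 0.0156) and 0.91 for LINC00894 and CXorf40B (0.16, 0.0143). They were 0.73 for FBXL19-AS1 and FBXL19 (SE 0.17, limma adjusted p = 0.0427), 0.70 for UCKL1-AS1 and UCKL1 (0.16, 0.0333) and 0.44 for C1RL-AS1 and C1RL (0.11, 0.0488). Of the 6 partners, C1RL was called, and the other 5 were not. Of these 6 pairs 5 are head to head, and AC090673.1 lies inside HMGA2. Of the 164 member pairs tested, 62 were head to head and 48 inside, and the calls were not compared between arrangements by a test.

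In the other called pairs the partner had the larger fold change. AC026740.1 (ENSG00000271781, chr5:675826-676616, plus strand) read 3.61, 3.75 and 3.05 CPM in siC1QBP and 3.07, 3.82 and 3.16 CPM in siNC, with overlapping groups. TPPP, the tubulin polymerization gene in which it lies, rose from 1.98, 2.48 and 2.51 CPM to 4.22, 5.13 and 5.51 CPM (log2 fold change 1.09, SE 0.19, edgeR adjusted p = 0.00145). The difference was -1.01 (SE 0.22, limma adjusted p = 0.0282). ASB16-AS1 (ENSG00000267080, chr17:44175973-44186717, minus strand) read 10.5, 11.6 and 11.7 CPM against 12.02, 10.97 and 10.7 CPM. ASB16, a SOCS-box gene tail to tail with it, read 2.22, 2.94 and 2.68 CPM against 1.92, 1.29 and 1.36 CPM. ASB16 just missed the gene-level threshold (log2 fold change 0.78, edgeR adjusted p = 0.0502), and the difference was -0.74 (SE 0.15, limma adjusted p = 0.0156).

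The pair calls depended on single libraries. Without siNC replicate 2, limma called none of the 654 pairs, where 87 had an unadjusted p under 0.05, and the adjusted p of the 8 ran from 0.0664 to 0.148. Without siC1QBP replicate 2 only LINC00894 with CXorf40B was still called among the 8 (limma adjusted p = 0.0478, and up to 0.146 for the others). Without siNC replicate 1 the calls of C1RL-AS1, FBXL19-AS1, UCKL1-AS1, GABPB1-AS1 and AC026740.1 were lost (limma adjusted p 0.0544 to 0.0911). Without siC1QBP replicate 3 those of C1RL-AS1, FBXL19-AS1, UCKL1-AS1 and AC026740.1 were lost (0.0555 to 0.169). C1RL-AS1 and UCKL1-AS1 lost theirs without siC1QBP replicate 1 (limma adjusted p = 0.0906 and 0.0643), and C1RL-AS1 and FBXL19-AS1 without siNC replicate 3 (0.0944 and 0.1). With ZNF512B in place of UCKL1 as the partner, the difference of UCKL1-AS1 was 0.45 and did not pass (limma adjusted p = 0.177). A prior count of 0.5 ended the calls of C1RL-AS1 and FBXL19-AS1 (limma adjusted p = 0.0559 for both), pairing each member with its most abundant overlapping coding gene also ended that of C1RL-AS1 (0.0555), and voom weights ended that of ASB16-AS1 (0.126).

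**Figure D4:**
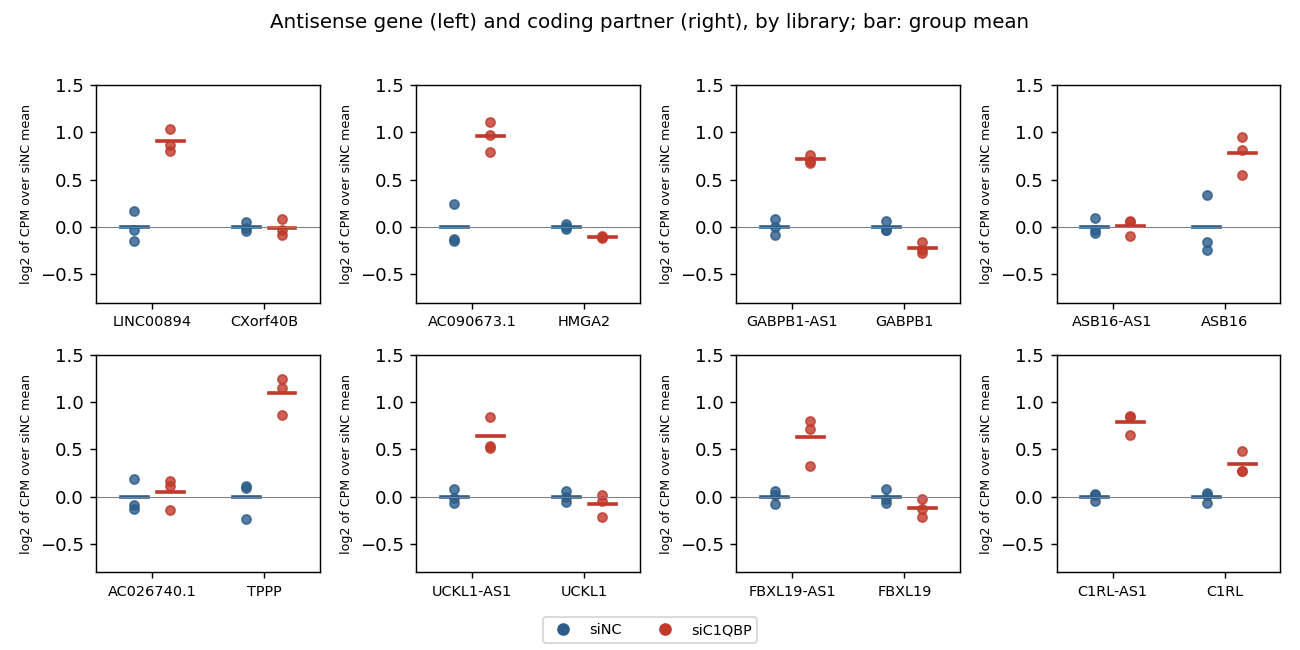
Each panel is 1 of the 8 pairs with a called difference, the antisense gene on the left and its coding partner on the right; the vertical axis is the log2 of each library's CPM over the siNC mean of that gene, points are libraries and bars are group means. In 6 panels the antisense points shift upward by more than the partner's, and for AC026740.1 with TPPP and ASB16-AS1 with ASB16 the partner's points shift upward by more.

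The members fell into 4 arrangements with their partners. Head to head were 65 members, of which 6 rose and 2 fell, with a median log2 fold change of 0.02. Their starts lay within 1000 bases of each other in 41 pairs, and of these members 3 rose and 1 fell. Tail to tail were 47 members, of which 4 rose, with a median of 0.11. Inside the partner were 53 members, of which 6 rose and 1 fell, with a median of 0.11. Around the partner were 18 members, with a median of 0.10; edgeR called none of them, with 1 at an unadjusted p under 0.05, as did limma-voom (1 unadjusted), while DESeq2 had none at either. Median exon overlap was 4.17% in head-to-head pairs, 11.2% in tail-to-tail pairs, 6.36% inside and 4.77% around. The shares called were 12.3% head to head (9.76% with starts within 1000 bases), 8.51% tail to tail, 13.2% inside and 0% around. The same test called 14.3% of all tested genes. No test of a difference between arrangements was made.

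**Figure D5:**
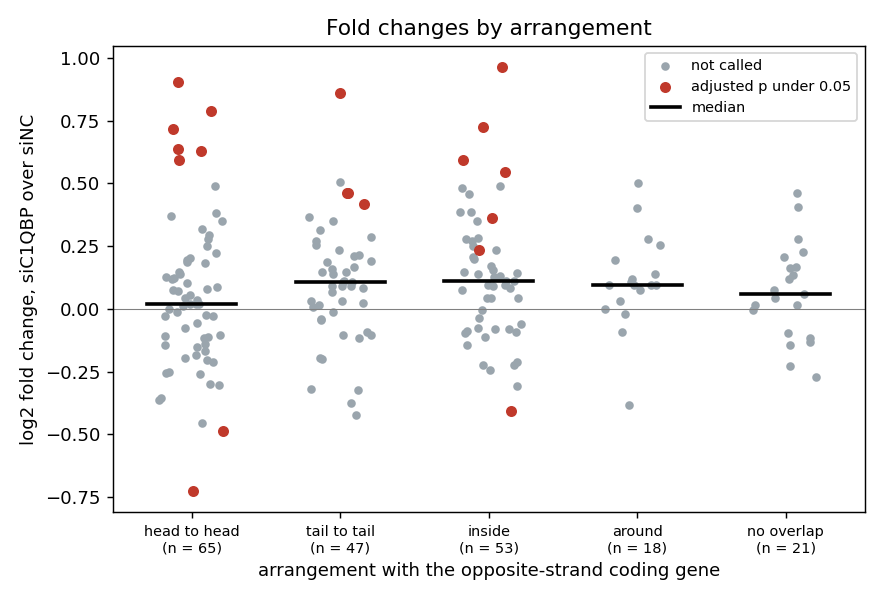
The vertical axis is the log2 fold change of siC1QBP over siNC, and each point is 1 member in the column of its arrangement; red points passed an adjusted p of 0.05 and black bars are medians. The medians run from 0.02 (head to head) to 0.11 (tail to tail and inside), and the called members are spread over the head-to-head, tail-to-tail and inside columns.

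The other 21 members overlapped no coding gene of the other strand in these coordinates, and for 13 of them a coding gene started on the other strand within 1000 bases of their start. Their median log2 fold change was 0.06. edgeR called none, with 3 at an unadjusted p under 0.05, and neither did DESeq2 (2 unadjusted) or limma-voom (3 unadjusted). Of these 13 neighbours, 4 coding genes were called, all lower: OTUD6B, ZC3H12A, TRMT61A and TINAGL1, named because they make up that count. The same test called 16.1% of all tested protein-coding genes (6.95% higher and 9.15% lower), and the 13 were not tested as a set. ZC3H12A, an RNase gene that limits inflammatory mRNAs, read 235 CPM on average in siC1QBP and 286 CPM in siNC (log2 fold change -0.28, edgeR adjusted p = 0.000865), next to LINC01137 at 0.04. TINAGL1, a matricellular protein gene, read 501 against 635 CPM (log2 fold change -0.34, edgeR adjusted p = 0.00031), next to AC114488.1 at 0.21.

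Calls were also counted by exon overlap and by level, as a description. Of the 34 members with 20% or more of their exon bases shared with the partner's, 2 rose (SH3BP5-AS1 and AC018653.3), with a median log2 fold change of 0.07. Of the 44 without exon bases shared with the partner, 1 rose (LUCAT1) and 2 fell (B3GALT5-AS1 and RAET1E-AS1), with a median of 0.07. Of these 44, 6 shared exon bases with another coding gene on the other strand, among them RAET1E-AS1 with 55.5% of its exon bases. By level, 6 of the 119 members with a lowest library of 2 to 5 CPM rose. Of the 49 with 5 to 10 CPM, 5 rose and 3 fell, and of the 36 with 10 CPM or more 5 rose. The shares called were 5.88% at 20% or more of exon overlap and 6.82% at none. By rising level they were 5.04, 16.3 and 13.9%, where the same test called 14.3% of all tested genes. The median SE over these levels was 0.20, 0.14 and 0.10, and no test between these groups was made.

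Genes whose products trim, cleave or edit antisense and promoter-upstream RNAs were read from a list of 57, all of them tested. Of these, 4 rose and 8 fell by edgeR, or 21.1% in all, where the same test called 14.3% of all tested genes and 16.1% of protein-coding genes (6.95% higher and 9.15% lower). The list had a median log2 fold change of -0.07 beside 0.003 over all tested genes. The larger number of falls was not kept under every setting: by library size alone 5 rose and 4 fell, without siC1QBP replicate 2, 4 rose and 4 fell, and without siNC replicate 1, 5 rose and 5 fell. Without siNC replicate 2, 3 rose and 1 fell, and without siNC replicate 3, 3 rose and 2 fell. The 13 exosome genes, whose complex degrades RNA from the 3' end, had a median of -0.13, and EXOSC5, EXOSC4, EXOSC6 and EXOSC3 fell. EXOSC5 read 17.8, 18.2 and 19.8 CPM in siC1QBP against 20.4, 28.8 and 27.6 CPM in siNC (log2 fold change -0.46, SE 0.11, edgeR adjusted p = 0.00938). Replicate 1 of siNC was close to the siC1QBP libraries. The rises were DCP2, the mRNA decapping enzyme, INTS3 of the Integrator complex that cleaves nascent RNAs, the adenosine deaminase gene ADARB1 and the cleavage factor gene CPSF7. DCP2 read 94.8, 94.8 and 96.9 CPM against 76.7, 70.0 and 72.7 CPM, well apart (log2 fold change 0.39, SE 0.05, edgeR adjusted p = 0.000152). INTS3 had a log2 fold change of 0.28 (edgeR adjusted p = 0.00145), ADARB1 0.36 (0.00346), CPSF7 0.18 (0.00889) and the polyadenylation factor gene CSTF2 -0.27 (0.00653). NCBP2 of the nuclear cap-binding complex, CPSF4 and DICER1 made up the other falls.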

How the data were processed

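Messenger and noncoding RNA was measured by RNA sequencing in 6 HuCCT1 libraries, 3 siC1QBP and 3 siNC. Per the labels' protocols, libraries were built from column-purified total RNA with a NEBNext kit that marks the strand. The deposited values are raw counts that the authors did not normalize. The submitters' processing notes name hg38, and the sources used here give no aligner, counting program or strand setting. Coordinates and biotypes of all 58735 genes matched GENCODE release 29. Every row named a gene.

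The members, lists and tests were chosen with earlier results of these data known. Since no label says that replicates were separate cultures, the p-values rest on the spread of these 6 libraries, and that spread may be technical. Counts were tested with edgeR 4.0.16 in R 4.3.3 (quasi-likelihood, TMM, filterByExpr, treatment as the only term), adjusted by Benjamini-Hochberg over 15530 genes. Differences of log2 CPM (prior count 2) between each antisense gene and its partner were fitted with limma 3.58.1 over 654 pairs. Genes or pairs with adjusted p under 0.05 were called. A gene with 0 counts could hold up to 0.147 to 0.175 CPM (3 counts), for counting error only. On simulated counts (15299 genes) the gene test called 48, 72, 96 and 100% of genes changed 1.25-, 1.5-, 2- and 3-fold, and 8.67% of its calls were false. The pair test (605 pairs) called 7.14, 33.3, 86.7 and 100%, with 5.56% false. Its low recovery of small differences limits what a missing pair call shows. The simulated counts were drawn independently, without deviations shared by many genes of a library. In the gene test most changed genes were drawn from outside the antisense pairs. These shares may therefore not hold for the faint members or for the real libraries.

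Members named were the 6 with the highest mean, up to 10 rises and 10 falls and up to 6 pair differences by smallest p, and the 3 largest changes not called, each with its partner. From the decay list up to 6 called genes were named by smallest p; others are named only to complete a count. The values of 1 called member and of 1 marker are not reported here. Alternatives were DESeq2 1.42.0, limma-voom, other scalings, filters and level rules, another partner rule, a length correction, a replicate block and each library left out. Python 3.11.15, numpy 2.4.6, pandas 2.3.3 and matplotlib 3.10.9 were used. Promoter sequences are from RefSeq.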

Additional observations from a re-analysis of the deposited data

How the results depend on the processing

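Of the 19 called members, 10 kept their call in all 14 alternatives: C1RL-AS1, LINC00894, LUCAT1, AC090673.1, ASMTL-AS1, VIPR1-AS1, GABPB1-AS1, UCKL1-AS1, FBXL19-AS1 and AP001453.2. None of the 8 member pair differences kept its call in every alternative run for it (10 for ASB16-AS1 and AC026740.1, 11 for the others). Members called numbered 15 by DESeq2, 19 by limma-voom and with size factors from medians of ratios, 22 by library size alone, 20 with every gene of at least 1 count, 21 among genes of at least 2 CPM and 17 with the trend with gene length removed. With each library left out they numbered 11 to 23, and all genes called 1090 to 2607 (2222 otherwise). Called partners then numbered 24 to 44, genes of the decay list 4 to 11 and pair differences 0 to 10 (12 otherwise). With both genes of a pair at 2 CPM or more, 22 of 152 pairs were called. A level rule of 1 CPM gave 356 members with 23 called, and one of 5 CPM gave 85 with 13. Signs near 0 turned for members that were not called. PSMA3-AS1 (0.0142) was -0.00052 with every gene of at least 1 count, -0.0154 with the length trend removed, and -0.0224 to 0.0786 with each library left out. KRT7-AS (-0.038) was 0.0444 with the length trend removed. ASB16-AS1 (0.00718) was -0.00739 with every gene of at least 1 count and -0.0243 to 0.0564 with each library left out, and AC026740.1 (0.0443) was -0.0169 to 0.15. The cause was not tested.

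The titles number replicates 1 to 3 in both groups. Same-numbered libraries shared little deviation from their group means (r = 0.04, 0.03 and -0.009 across genes), and the numbers were not taken as pairs. Between differently numbered libraries r ran from -0.05 to 0.02. The libraries numbered 1 correlated best with each other, as did those numbered 2, and those numbered 3 did not. Whether the numbers mark pairs was thus not settled. With the replicate number as a block, 3092 genes, 21 members, 46 partners, 16 genes of the decay list and 30 pair differences were called. Without the block these were 2222, 19, 35, 12 and 12.

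Depth limits the faint members: with a median SE of 0.20 on the log2 scale in members whose lowest library held 2 to 5 CPM, against 0.10 in those with 10 CPM or more, changes of small size were often not detectable.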
